A study of Mus musculus with 2 samples.

Results

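The cells described here are 396 of the 2633 kept cells (15.04%, exact 95% binomial interval 13.7 to 16.5%) of a library of regulatory T cells (Tregs) sorted for no reporter signal of PPARg, and they were taken for resting Tregs. A cell was selected when its unique molecular identifiers (UMIs, the count of captured RNA molecules) summed to 3 or more over Ccr7, Satb1, Ly6c1 and Igfbp4. It also had to hold at most 1 UMI summed over Socs3 and Gadd45g, at most 1 over Socs2, Myc and Lta, and at most 2 over Ifit1, Ifit3, Isg15, Rsad2 and Usp18. The rule used counts of these same cells, so the levels of the 14 genes it names are a description and support nothing. Of the 549 cells that reached the marker sum, 153 exceeded a limit and were not selected.

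Tregs hold back other immune cells, and Foxp3 is the transcription factor that defines them. PPARg, the product of Pparg, is a lipid-activated nuclear receptor known from fat cells and from Tregs of adipose tissue. Both groups were spleen Tregs of male B6 mice that carry reporters for Pparg (Tdt) and Foxp3 (Gfp), 8 weeks of age, pooled from 2 or 3 mice per sort and encapsulated with Chromium Single Cell 3′ v2 chemistry. One group was labelled PPARg negative and the other PPARg low, each as 1 library, so no spread between mice could be measured and no test across samples was possible. The 4252 kept cells of both libraries held at most 10% mitochondrial UMIs, and the PPARg-negative ones had a median of 2171 UMIs and 946 genes, against 1517 and 834 in the PPARg-low library.

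Resting lymphocytes circulate between blood and lymphoid tissue. Ccr7 is a chemokine receptor that guides cells into the T cell zones of lymphoid organs, Satb1 is a chromatin organiser active in developing and resting T cells, Ly6c1 is a surface protein held in the membrane by a lipid anchor, and Igfbp4 is a secreted protein that binds insulin-like growth factors. Tregs that lose this resting programme after activation gain effector genes such as Icos, Maf and Klrg1 and enter tissues. Socs3, Socs2 and the interferon genes of the limits are induced by cytokine signals.

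The sequences next to the start sites of 3 of the markers and of Dapl1, the first of the genes outside the rule with 100 or more UMIs when ranked by the lower bound of the ratio, are shown to compare them for the letters bound by KLF, FOXO and TCF/LEF factors, families active in resting T cells. Of Ccr7, Satb1, Ly6c1, Igfbp4 and Dapl1, 4 of 5 matched an entry by symbol. Each is the 250 bases upstream of the annotated start site, 5′ to 3′ on the gene's strand, from RefSeq on GRCm38.p6 (mm10), with the row nearest to the gene start in GENCODE M21. Capitals mark KLF letters (CACCC), FOXO letters (GTAAACA) and TCF/LEF letters (CTTTGA or CTTTGT) on either strand. No motif overlapped another in these windows.
Satb1, chr17:51833291-51833540, minus strand: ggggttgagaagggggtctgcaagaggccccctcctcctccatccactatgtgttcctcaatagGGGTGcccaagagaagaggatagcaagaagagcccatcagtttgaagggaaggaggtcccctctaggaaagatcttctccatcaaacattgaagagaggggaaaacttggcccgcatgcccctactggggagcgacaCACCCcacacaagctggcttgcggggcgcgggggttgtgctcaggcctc
Ly6c1, chr15:75048838-75049087, minus strand: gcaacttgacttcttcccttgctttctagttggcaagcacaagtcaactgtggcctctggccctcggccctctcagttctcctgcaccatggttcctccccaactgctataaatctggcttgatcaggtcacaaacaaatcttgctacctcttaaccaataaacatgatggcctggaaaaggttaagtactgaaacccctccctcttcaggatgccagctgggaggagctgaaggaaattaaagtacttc
Igfbp4, chr11:99040994-99041243, plus strand: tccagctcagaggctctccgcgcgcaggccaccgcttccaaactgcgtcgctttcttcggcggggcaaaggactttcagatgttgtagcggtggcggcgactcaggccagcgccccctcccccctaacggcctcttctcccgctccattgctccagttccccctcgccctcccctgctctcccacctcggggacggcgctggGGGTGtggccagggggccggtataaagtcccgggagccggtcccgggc
Dapl1, chr2:59484403-59484652, plus strand: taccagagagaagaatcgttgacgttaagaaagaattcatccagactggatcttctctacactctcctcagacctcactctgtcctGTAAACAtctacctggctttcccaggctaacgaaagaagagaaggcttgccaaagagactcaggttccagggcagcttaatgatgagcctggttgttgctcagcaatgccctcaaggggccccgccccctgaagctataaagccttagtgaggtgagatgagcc
Satb1 held 2 KLF matches, Igfbp4 held 1 and Dapl1 held 1 FOXO match. The Ly6c1 window held none of these letters, and none of the 4 held the TCF/LEF letters. Of all 32851 RefSeq windows of the same length, 52.0% held the KLF letters, 3.17% the FOXO letters and 27.6% the TCF/LEF letters. Igfbp4 (chromosome 11, 99041244 to 99054392, plus strand) and Ccr7 (chromosome 11, 99144196 to 99155077, minus strand) are near neighbours, and the 1 protein-coding gene between them, Tns4, had 0 UMIs in the kept cells of the library.

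The marker counts had no gap at the threshold. Among PPARg-negative cells within the 3 limits, 976 held 0 marker UMIs, 477 held 1, 281 held 2 (just outside the rule), 163 held 3 (just inside), 94 held 4 and 139 held 5 or more. In the PPARg-low library 2 of 1619 kept cells passed the whole rule (0.124%, 0.0150 to 0.446%), so no gated comparison was made there. Of its 1619 kept cells 1514 held 0 marker UMIs, against 1120 of the 2633 kept PPARg-negative cells before the limits. The PPARg-low library was also shallower. With each cell thinned at random to 1500 UMIs, 1 of 819 PPARg-low cells passed the rule, against 182 of 1866 PPARg-negative cells. The libraries shared 5 barcode sequences, and 0 selected cells carried one of them.

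**Figure D1:**
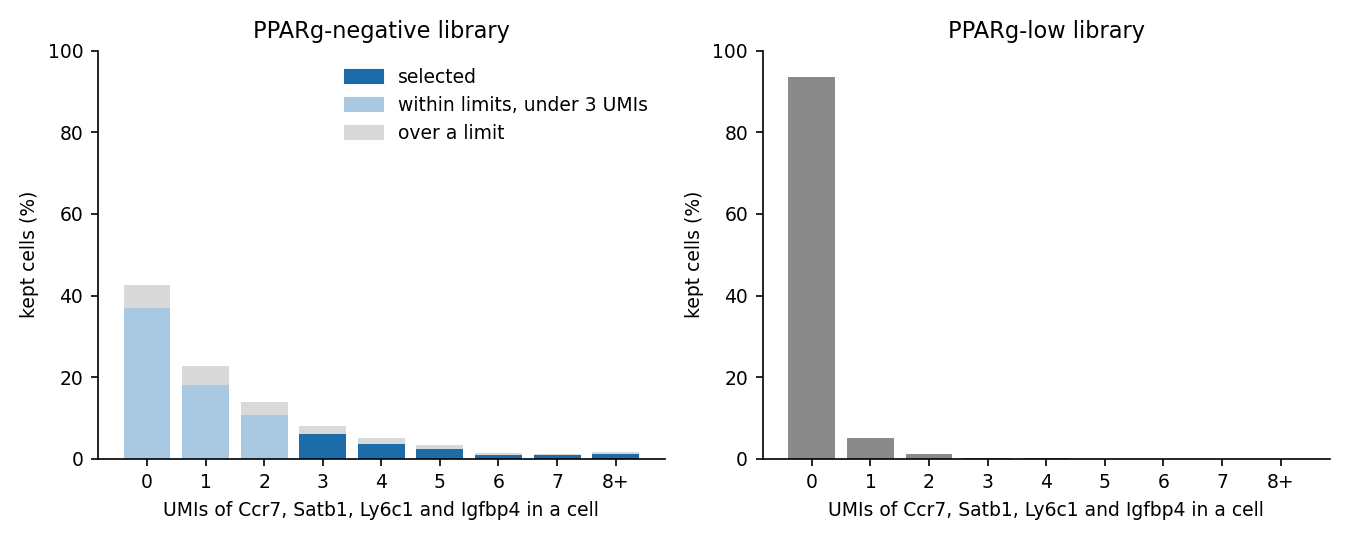
Share of kept cells (y axis, percent) by the number of UMIs of Ccr7, Satb1, Ly6c1 and Igfbp4 in a cell (x axis) in each library. Dark bars are the 396 selected cells, pale bars cells within the 3 limits with under 3 marker UMIs and grey pieces cells over a limit; counts fall steadily from 976 cells at 0 to 163 at 3 within the limits, with no second peak.

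Selection moved with sequencing depth. It took 4.36% of cells with under 1000 UMIs (22 of 505), 15.3% of those with 1500 to 2000 and 23.0% of those with 3000 to 4000. Selected cells had medians of 2624.5 UMIs and 1010 genes, against 2092 and 929 in the other kept cells. Ribosomal protein genes made up a median of 37.8% of UMIs in selected and 33.3% in other cells, and 94.2% against 73.2% of cells had a ribosomal share of 20% or more, called ribosome-rich below. When every cell was thinned to 1500 UMIs before the rule, 182 of 1866 cells passed (9.75%), and at 750 UMIs 75 of 2394 (3.13%). For these reasons the counts of the main lists and the ratios of leading genes are also given among ribosome-rich cells with the others held to the same 3 limits.

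In the selected cells Ly6c1 supplied 42.0% of the 1760 marker UMIs, Satb1 27.0%, Ccr7 21.9% and Igfbp4 9.15%. Of the 396 cells, 66 held UMIs of 1 marker, 224 of 2, 92 of 3 and 14 of all 4. Ly6c1 UMIs were found in 279 of the cells, Satb1 in 269, Ccr7 in 219 and Igfbp4 in 79. Most selected cells therefore showed a pair of the markers, and an all-marker cell was uncommon at this depth.

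To see each marker without its own part in the rule, cells were chosen again with 3 or more UMIs of the other 3 genes and the same limits. Igfbp4 then stood at 86.8 UMIs per 1000000 UMIs (CPM) in the chosen cells and 44.4 CPM in the rest, a ratio of 1.95 (exact conditional binomial 95% interval 1.501 to 2.52, counting error only). Satb1 was at 265.0 against 182 CPM (1.45, 1.23 to 1.71). The ratio of Ly6c1 was 1.24 (1.05 to 1.45), and that of Ccr7 was 1.19 (0.989 to 1.42), with an interval that included 1. The ratio of Igfbp4 was the largest of the 4 and that of Ccr7 the smallest, and their intervals did not overlap.

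Detection was also compared at equal depth. With cells thinned to 1500 UMIs, a Ccr7 UMI was seen in 21.01% of cells chosen on the other 3 markers and 19.1% of the rest, and an Igfbp4 UMI in 8.59 and 5.13%. Across all kept cells of that depth, Ly6c1 was detected in 30.9% of cells with a Satb1 UMI (26.7 to 35.5%) and 19.9% of those without (17.8 to 22.03%). It was detected in 23.0% of cells with a Ccr7 UMI (18.7 to 27.7%) and 22.4% of those without (20.3 to 24.6%), a difference not detectable at this depth. Satb1 was detected in 26.9% of cells with and 23.2% of those without a Ccr7 UMI, with overlapping intervals. Igfbp4 was detected in 8.81% of cells with and 4.84% without a Ly6c1 UMI, with intervals apart. With and without Ccr7 it was in 8.03 and 5.18%, and with and without Satb1 in 5.38 and 5.85%, with overlapping intervals in both. No cell type that should lack these genes was present in number in the sorted library, so the part of free RNA in such shares was not tested.

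Transcripts of Treg genes were found in most selected cells, though in a smaller share than in the other sets. At 1500 UMIs, 87.2% of the selected cells held a UMI of Foxp3, Il2ra, Ctla4, Ikzf2, Tnfrsf18, Izumo1r or Ikzf4, against 94.7% of other PPARg-negative and 98.9% of PPARg-low cells. Foxp3 itself was at 22.3 CPM in selected, 25.3 in other and 34.5 in PPARg-low cells, and the ratio of selected to other cells was 0.88 (0.54 to 1.37). Il2ra, the high-affinity interleukin 2 receptor chain, was at 169, 209 and 169 CPM, a ratio of 0.81 (0.69 to 0.95). Pparg had 0 UMIs in the 396 selected cells, so that up to 0.758% of cells could hold 1 at this depth, and 0 in all 2633 kept cells, where the limit is 0.114%. In the PPARg-low library 15 of 819 cells thinned to 1500 UMIs held one (1.83%).

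Markers of other cell types were few. The B cell and plasma cell list had 67 UMIs in the selected cells (62.1 CPM against 176 in the other kept cells), with Jchain, Mzb1 and H2-Ab1 among the genes at 0. Cd74 gave 48 of those 67. The myeloid list had 133 UMIs, 131 of them from Cst3, with Lyz2, Csf1r and Itgam at 0, and the CD8 and natural killer list had 34, with Klrd1 and Ncr1 at 0 and 29 from Cd8b1, in 27 cells (26.9 CPM against 24.5 in the other kept cells). The 7 red cell and platelet genes were all at 0.

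Outside the rule, the selected cells differed from the other kept cells mainly by genes at lower levels. Of 8242 genes with 30 or more UMIs over both sides, 48 were higher by 1.5-fold or more with an interval past 1 (0.582%) and 663 were lower (8.04%), and the median log2 ratio of all genes was -0.17. When ratios were taken relative to that median, 143 genes were higher and 365 lower. In cells of 1500 to 4000 UMIs 55 of 7526 were higher (0.731%) and 401 lower (5.33%). With only ribosome-rich cells on both sides and the others within the limits, 58 were higher (0.804%) and 333 lower (4.62%) of 7210, and the median was -0.11. Of the 48 higher genes 28 were called again there, and of the 663 lower genes 280.

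All 21 measured genes of the effector Treg list were at a ratio below 1, 19 were called lower and 0 higher, and the median log2 ratio was -1.77, against -0.17 over all genes. In sum the list stood at 464 CPM in selected, 1296 in other PPARg-negative and 6142 in PPARg-low cells. Ribosomal protein genes made up 388566, 339140 and 217057 CPM of these sets. The part of this composition in the PPARg-low CPM values given here and below was not tested. Among ribosome-rich cells within the limits 11 of 17 members were called lower, with a median of -1.29, beside 4.62% of all genes. At 1500 UMIs a selected cell held a mean of 0.605 UMIs of the list, an other cell 1.63 and a PPARg-low cell 8.20, and 59.6, 45.8 and 4.52% of cells held none.

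Maf, a transcription factor of differentiated T cells, was at 14.8 CPM in selected, 108 in other and 335 in PPARg-low cells, 7.30-fold lower in the selected than in the other cells (4.45 to 12.9). Ccl5, a chemokine of effector cells, was at 8.34, 69.9 and 526 CPM, 8.38-fold lower (4.36 to 18.5). Ccr2, a receptor for inflammatory chemokines, was 4.67-fold lower (2.88 to 8.12). Maf, Ccl5 and Ccr2 were called among ribosome-rich cells within the limits too. Klrg1, an inhibitory receptor of terminal effector cells, was at 11.1 and 62.7 CPM. Of its 12 UMIs in the selected cells 9 came from 1 cell, so that its ratio of 0.18 was 0.045 without that cell. The other cells, with up to 13 Klrg1 UMIs in a cell, were all kept, so this ratio could only fall. Icos, a costimulatory receptor of activated T cells, was at 73.2, 185 and 484 CPM (ratio 0.40, 0.31 to 0.50). The integrin chain Itgae was counted 4 times in the selected cells and was 6.88-fold lower (2.62 to 25.7).

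All 15 genes ranked lowest, by the bound of the interval that lies nearest to 1, were called lower, which the ranking itself largely fixed. Beside Maf, Ccl5, Klrg1, Ccr2 and Itgae they were Ccr4, Penk, Serpina3g, S100a6, S100a4, Tnfrsf9, Cdkn2c, Itgb1, Fgl2 and Lgmn. Ccr4, which guides T cells to skin and other tissues, had 2 UMIs in selected and 139 in other cells (15.6-fold lower, 4.23 to 130). Penk, the gene of enkephalin precursors, had 3 and 165 UMIs (12.3-fold, 4.14 to 60.3). Several of these low counts rested on few cells. Without the selected cell with the most UMIs of the gene, the ratio of Penk went from 0.081 to 0.027 and that of Itgae from 0.15 to 0.073. That of Fgl2 went from 0.19 to 0.093 and that of Ccr2 from 0.21 to 0.14. The 2 Ccr4 UMIs lay in 2 cells and the 3 Cdkn2c UMIs in 3. Without 1 such cell the ratio of Ccr4 went from 0.064 to 0.032 and that of Cdkn2c from 0.13 to 0.089. No cell was taken from the other side, so these ratios could only fall. Tnfrsf9, the costimulatory receptor 4-1BB, was at 53.8 and 183 CPM and at 1286 CPM in PPARg-low cells. Each of the 15 was higher in the PPARg-low library than in the other PPARg-negative cells. Among ribosome-rich cells within the limits 12 of the 15 were called lower, and Ccr4 and Itgae had under 30 UMIs there, while Lgmn was at 0.54 (0.16 to 1.43).

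**Figure D2:**
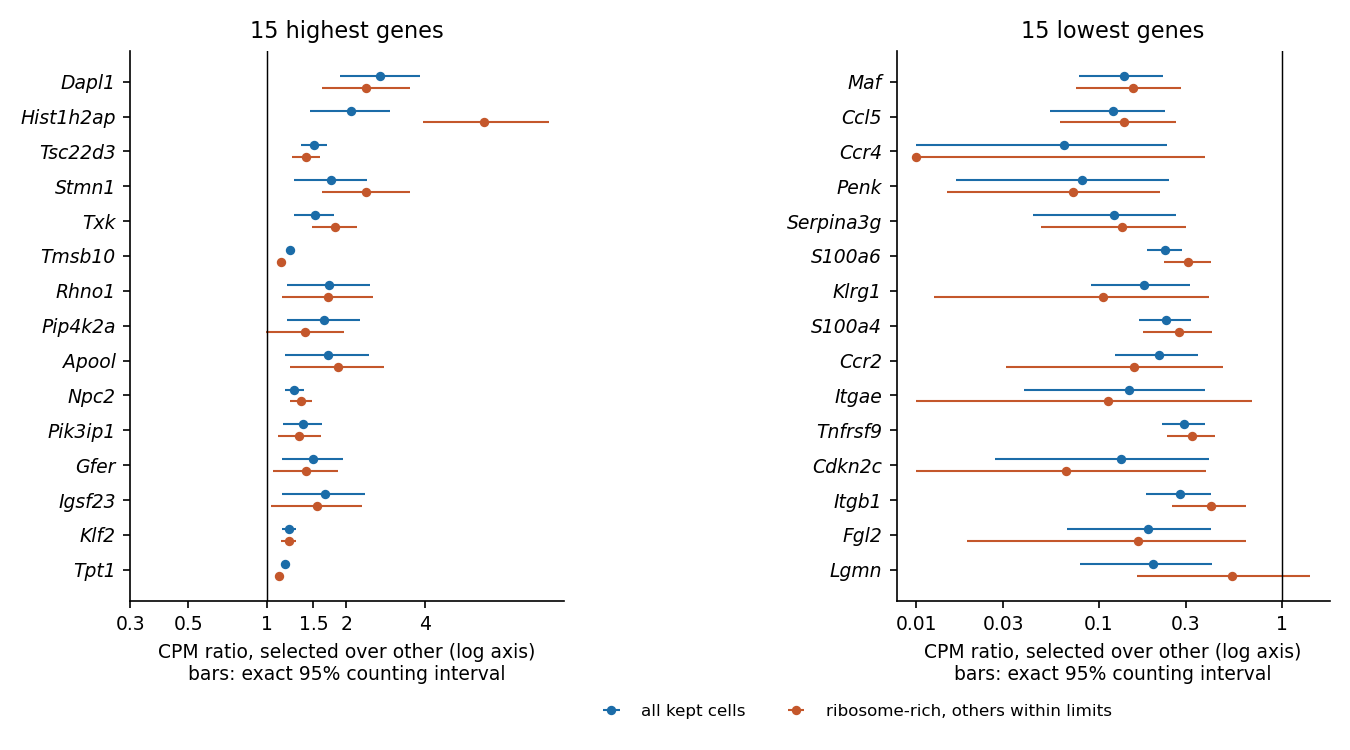
CPM ratio of selected over other kept cells (x axis, log scale) for the 15 highest (left) and 15 lowest genes (right), with exact 95% counting intervals as bars. Blue points use all kept cells and orange points ribosome-rich cells with the others inside the 3 limits; points at 0.01 are at or below that value. The lowest genes lie below 0.3 over all kept cells, while the highest reach 2.70 there; the 6.73 of Hist1h2ap among ribosome-rich cells includes the 1 cell with 43 of its UMIs.

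S100 genes encode calcium-binding proteins that are abundant in activated and migrating T cells. In the list of S100, galectin and annexin genes 13 were measured and 5 called lower (S100a4, S100a6, S100a11, Lgals1 and Anxa2) and 0 higher, with a median log2 ratio of -0.59. Over all genes 8.04% were called lower. S100a6 was at 77.9 CPM in selected, 338 in other and 1266 in PPARg-low cells (4.34-fold lower, 3.49 to 5.48). S100a4 was at 37.1, 159 and 431 CPM (4.30-fold lower, 3.13 to 6.06). Their ratios among ribosome-rich cells within the limits were 0.31 and 0.27. S100a10, with 849 UMIs in the selected cells, was not called (0.78, 0.73 to 0.84). In 1 selected cell 26 of the 84 S100a6 UMIs were found, and the ratio without it was 0.16 in place of 0.23. It could only fall, since the other cells, with up to 45 S100a6 UMIs in a cell, were all kept. Of the genes linked to tissue Tregs, 5 of 10 were called lower (Il1rl1, Rora, Penk, Epcam and Nfil3) and 0 higher, with a median of -1.20. Among ribosome-rich cells within the limits the tissue list kept 3 of 8 called and a median of -0.70, beside 4.62% of all genes.

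Of 15 genes of Treg identity 14 were at a ratio below 1. Called lower were 8 and higher 0, with a median of -0.63: Ctla4, Ikzf2, Ikzf4, Tnfrsf18, Tnfrsf4, Nrp1, Nt5e and Capg. The share called lower over all genes was 8.04%. Ikzf2, the transcription factor Helios, was at 398 CPM in selected, 878 in other and 2114 in PPARg-low cells (2.21-fold lower, 1.998 to 2.44). Ctla4, an inhibitory receptor, was at 80.7, 180 and 629 CPM (2.23-fold lower, 1.79 to 2.82). Tnfrsf4, the costimulatory receptor OX40, was at 283, 601 and 2715 CPM (2.13-fold lower, 1.89 to 2.40). In ribosome-rich cells within the limits 4 of 14 were called lower (Ikzf2 at 0.52, Ikzf4, Tnfrsf4 at 0.60 and Nrp1), and Ctla4 was at 0.67 (0.52 to 0.86). There 4.62% of all genes were called lower. Foxp3 and Il2ra, given above, were not called in either comparison.

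The higher side was small, and part of it came from few cells. Dapl1, a gene of resting T cells, had 55 UMIs in 25 selected cells and 91 in 45 other cells, at 51.0 against 18.9 CPM and 2.07 in PPARg-low cells (ratio 2.70, 1.90 to 3.81). Txk, a kinase of T cell receptor signalling, was at 162, 107 and 40.7 CPM (1.52, 1.27 to 1.80). Tsc22d3, a glucocorticoid-induced regulator of resting cells, was at 376, 250 and 171 CPM (1.51, 1.34 to 1.69). Also called were Rhno1 (1.72, 1.19 to 2.46), Apool (1.71, 1.17 to 2.45), Igsf23 (1.66, 1.14 to 2.37) and Pip4k2a (1.65, 1.19 to 2.26). Of the 15 highest genes 9 were called, and 7 among ribosome-rich cells within the limits, where Dapl1 was at 2.38 and Txk at 1.81.

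Hist1h2ap and Stmn1, both of dividing cells, were called higher on account of 1 cell. That cell had 15877 UMIs, 182 of them from the cell cycle list against 42 in the next selected cell, and 3 marker UMIs. It held 43 of the 50 Hist1h2ap UMIs and 26 of the 57 Stmn1 UMIs of the selected cells. Without it the ratio of Hist1h2ap went from 2.09 to 0.30 and that of Stmn1 from 1.76 to 0.97, and the median of the 13 measured cell cycle genes from -0.10 to -0.45, with 0 called higher and 3 lower. Of all 8233 genes tested without that cell, 44 were called higher and 685 lower. The other side kept its cells, with up to 37 Hist1h2ap and 28 Stmn1 UMIs in a cell, so both ratios could only fall. These values therefore do not show less division among the selected cells. With all cells included, 5 of 396 selected and 23 of 2237 other cells held 10 or more cell cycle UMIs.

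Other genes of resting T cells lay close to the level of the other cells. Of 20 resting-state regulators 1 was called higher (Tsc22d3) and 1 lower (Elf4), with a median of 0.03, beside 0.582% higher and 8.04% lower over all genes. Among ribosome-rich cells within the limits 0 were called in either direction, and Tsc22d3 was at 1.41. Klf2, which maintains quiescence and homing receptors, was at 1143 CPM in selected, 944 in other and 332 in PPARg-low cells (1.21, 1.14 to 1.29). Lef1 was at 235, 185 and 83.1 CPM (1.27, 1.10 to 1.46), and Tcf7, its relative, at 175, 141 and 37.9 CPM (1.24, 1.05 to 1.46). These 3 were at 1.21, 1.36 and 1.10 among ribosome-rich cells within the limits. Bach2, a repressor of effector genes, had 33 UMIs and a ratio of 0.96 (0.64 to 1.40). Of the further resting Treg markers S1pr1, Klf2, Tcf7, Lef1, Bach2 and Dapl1, 1 was thus called higher, Dapl1, so the label of a resting state rested on the rule's own markers and on effector genes at lower levels. The intervals of Klf2, Lef1 and Tcf7 excluded 1 and did not reach the 1.5-fold size used here.

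Of 22 other resting T cell genes 2 were called higher (Dapl1 and Cnn3) and 0 lower, with a median of 0.18, and in ribosome-rich cells within the limits 4 of 21 (Dapl1, Cnn3, Il6ra and Atp1b1) with a median of 0.28. The shares called higher over all genes were 0.582% and 0.804%. Il7r, the interleukin 7 receptor chain, was at 167, 184 and 411 CPM in selected, other and PPARg-low cells (0.91, 0.77 to 1.07). Il6ra was at 134, 99.4 and 71.7 CPM (1.35, 1.12 to 1.63), and Actn1 at 102, 73.5 and 16.5 CPM (1.39, 1.11 to 1.72). Ly6c2, a close paralogue of Ly6c1, had 11 and 22 UMIs (2.23, 0.98 to 4.81), and reads of such paralogues could have been split between them.

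Of 15 homing and egress genes 0 were called higher and 5 lower (Cxcr5, Ccr6, Gpr183, Itga4 and Itgal), with a median of -0.16, beside 8.04% called lower and a median of -0.17 over all genes. Among ribosome-rich cells within the limits 3 were called lower (Cxcr5, Ccr6 and Itga4), with a median of 0.00. S1pr1, the receptor that lets T cells leave lymphoid organs, was at 162 CPM in both sets (1.001, 0.85 to 1.18) and 79.6 in PPARg-low cells. Ccr6 had 3 and 96 UMIs and Itga4 was at 30.6 and 69.7 CPM (2.28-fold lower, 1.59 to 3.37).

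Signalling lists showed fewer calls. No member was called in either direction of the 17 T cell receptor genes (median -0.27), the 8 Gimap genes (-0.08) and the 20 translation factors (0.10). Among 14 immediate early genes 1 was called lower (Nr4a1, 0.53, 0.31 to 0.85), and 1 of 12 cytokine receptors (Tgfbr1), shares near the 8.04% of all genes called lower. Among ribosome-rich cells within the limits Egr2 was called lower too, Tgfbr1 was not called and Il6ra was called higher. Of 16 interferon genes outside the rule 2 were lower (Oas1a and Igtp), and 0 of 16 among ribosome-rich cells within the limits. All of 84 ribosomal protein genes were uncalled, 80 of them at a ratio above 1, with a median of 0.19. The 13 mitochondrially encoded genes had a median of -0.23.

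**Figure D3:**
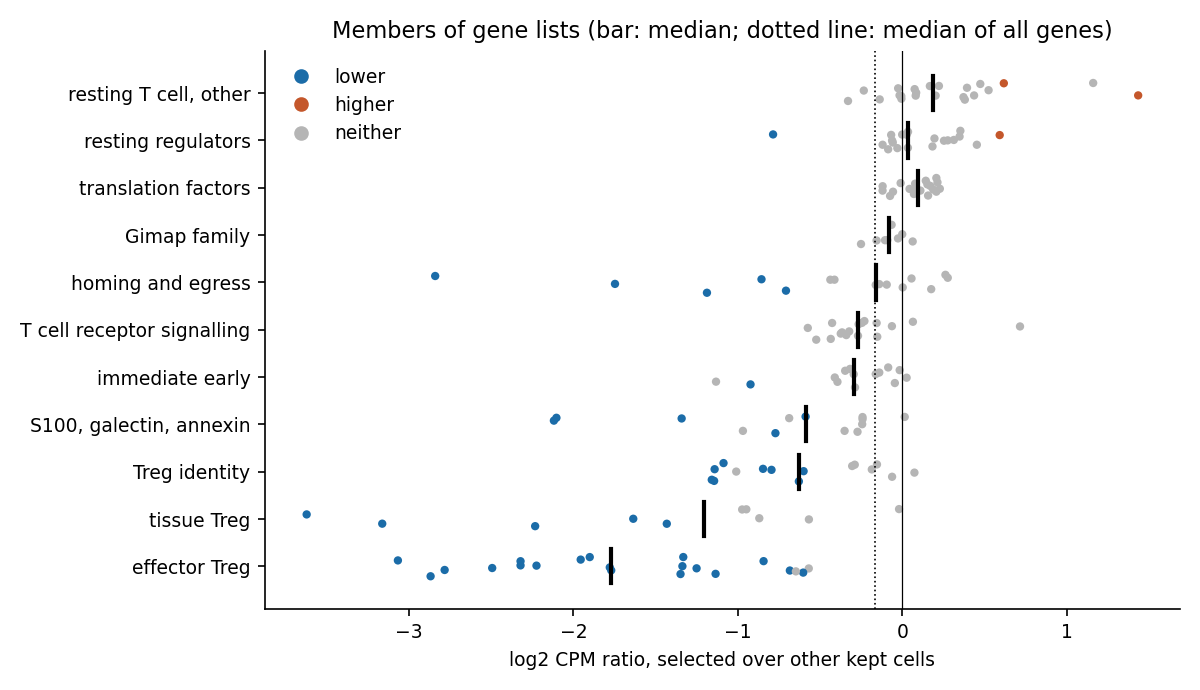
Log2 CPM ratio of selected over other kept cells (x axis) of the measured members of 11 gene lists (points), with the list median as a black bar and the median of all genes, -0.17, as a dotted line. Effector Treg genes have a median of -1.77, while resting regulators sit at 0.03.

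Several levels changed over the whole range of marker counts. In cells within the limits, Ikzf2 was at 1275 CPM at 0 marker UMIs, 803 at 1, 599 at 2, 528 at 3, 380.0 at 4 and 272 at 5 or more. S100a4 was at 289, 82.5, 53.6, 71.0, 23.5 and 9.97 CPM over the same steps, and Maf at 197, 75.8, 26.8, 26.1, 7.83 and 7.48. Klf2 was at 822, 945, 1192, 1104, 1120 and 1199 CPM, and Tsc22d3 at 225, 274, 320.3, 339, 427 and 384. For Ikzf2, S100a4 and Maf most of the difference lay between 0 and 2 marker UMIs, outside the selected cells. Median UMIs per cell and median ribosomal share also rose over these steps, from 1558 to 2765 and from 25.5 to 38.4%, and their part was not tested.

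Within 1500 to 4000 UMIs, where median depth went from 2315 at 0 to 2704.5 at 5 or more, Ikzf2 went from 926 to 263 CPM, S100a4 from 248 to 12.8 and Maf from 150 to 6.41. Txk was at 83.8, 92.9 and 93.9 CPM at 0, 1 and 2 marker UMIs and at 160, 194 and 205 at 3, 4 and 5 or more. Dapl1 had no such order: it was at 21.6, 16.8, 7.83, 33.2, 0 and 99.3 CPM. S1pr1, Il7r, Bach2, Foxp3 and Il2ra showed no steady order either.

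**Figure D4:**
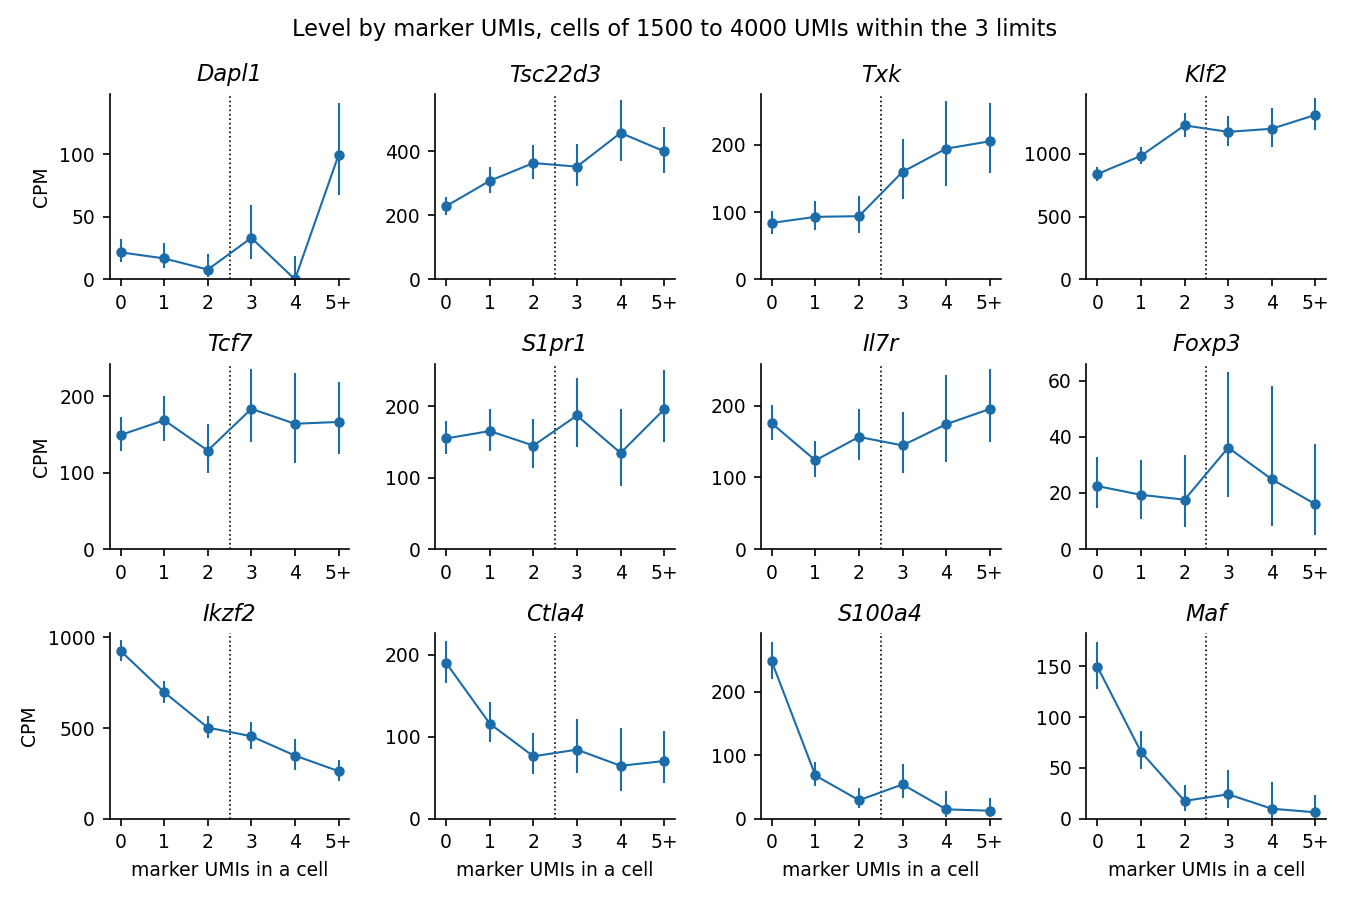
CPM (y axis, from 0) by marker UMIs in a cell (x axis) for 12 genes in cells of 1500 to 4000 UMIs within the 3 limits; bars are exact 95% Poisson intervals and the dotted line is the threshold of the rule. Ikzf2 steps down from 926 to 263 CPM, and S1pr1 stays between 134 and 196.

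Cells next to the rule were compared with the selected ones. Against the 281 cells with 2 marker UMIs, 61 of 4964 genes were higher (1.23%) and 102 lower (2.05%). Of the 15 lowest genes 2 were called there, S100a6 (0.56) and Tnfrsf9 (0.59), and Ikzf2 was at 0.66. Of the 15 highest 7 were called higher there, namely Dapl1, Txk, Apool, Gfer, Rhno1, Hist1h2ap and Stmn1, the last 2 with the dividing cell included. Against the 153 cells that reached the marker sum and exceeded a limit, 92 of 4614 genes were higher (1.99%) and 113 lower (2.45%). Of the 15 lowest genes 1 was called lower against these cells and 8 were at a ratio below 1. Whether low levels of the 15 were shared with these cells was not settled by the calls. Of the 15 highest 6 were called higher. Of named genes outside the limits, Tsc22d3 (1.52, 1.24 to 1.88), Pik3ip1 (1.55, 1.13 to 2.14), Il6ra (1.64, 1.15 to 2.39) and Dapl1 (2.77, 1.36 to 6.37) were higher in the selected cells, and Rgs1 (0.39, 0.31 to 0.49), Junb (0.56, 0.46 to 0.68), Cish (0.51, 0.35 to 0.75) and Nr4a1 (0.25, 0.14 to 0.46) lower. Cells over a limit were deeper, with a median of 3028 UMIs. A call needed 30 or more UMIs over both sides. The 153 cells over a limit held 488251 UMIs in all and the 281 cells with 2 marker UMIs 671176. Ccr4, Penk and Itgae would thus go uncalled in both comparisons even at their level in the other kept cells.

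The selected cells varied among themselves. The 139 cells with 5 or more marker UMIs differed from the 163 with 3 by 24 genes higher (0.842%) and 90 lower (3.16%) of 2851. Ikzf2 was at 272 against 528 CPM (0.51, 0.41 to 0.65), S100a6 at 37.4 against 147 (0.25, 0.14 to 0.45) and Dapl1 at 92.3 against 28.4 (3.25, 1.66 to 6.84). A single cell gave 26 of the 62 S100a6 UMIs of the cells with 3 marker UMIs. It is included in the S100a6 ratios here and below, so part of this difference came from 1 cell. The 279 cells with a Ly6c1 UMI had 61 genes higher (1.72%) and 93 lower (2.62%) of 3547 than the 117 without, among them Rgs1, a regulator of chemokine signalling (0.50, 0.36 to 0.69), Tnfrsf9 (0.44, 0.25 to 0.76) and S100a6 (0.46, 0.29 to 0.72), all lower. The 219 cells with a Ccr7 UMI had 56 genes higher (1.58%) and 65 lower (1.83%) than the 177 without, with S100a6 at 0.44 (0.28 to 0.70) and Dapl1 at 2.59 (1.34 to 5.39).

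A minor set of 23 selected cells had a ribosomal share under 20%, and their median depth was 762 UMIs against 2669 in the other 373. In these cells 367 genes were higher (10.3%) and 158 lower (4.45%) of 3547. S100a6 was at 1269 against 50.3 CPM and S100a4 at 614 against 23.7, so that 31 of the 84 S100a6 UMIs of all selected cells came from these 23. Ikzf2 was at 1351 against 376 CPM (3.597, 2.44 to 5.14). Klf2 was at 491 against 1158 CPM (0.42, 0.22 to 0.74). Their median mitochondrial share was 7.50% against 2.27%. The part of RNA quality in these differences was not tested.

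Clusters made without the 14 rule genes did not set the selected cells apart. They were found in all 11 clusters. The largest share was 38.5% in cluster 9 (67 of 174 cells), whose leading genes included Txk, and the next was 26.4% in cluster 2, with Dapl1 among its leading genes. Neither was given a name. The lowest shares were 2.03% of cluster 0 (9 of 443 cells) and 4.26% of cluster 8 (8 of 188), both effector Treg-like by their leading genes. Cluster 0 had a median ribosomal share of 14.1% and a median depth of 1372 UMIs.

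**Figure D5:**
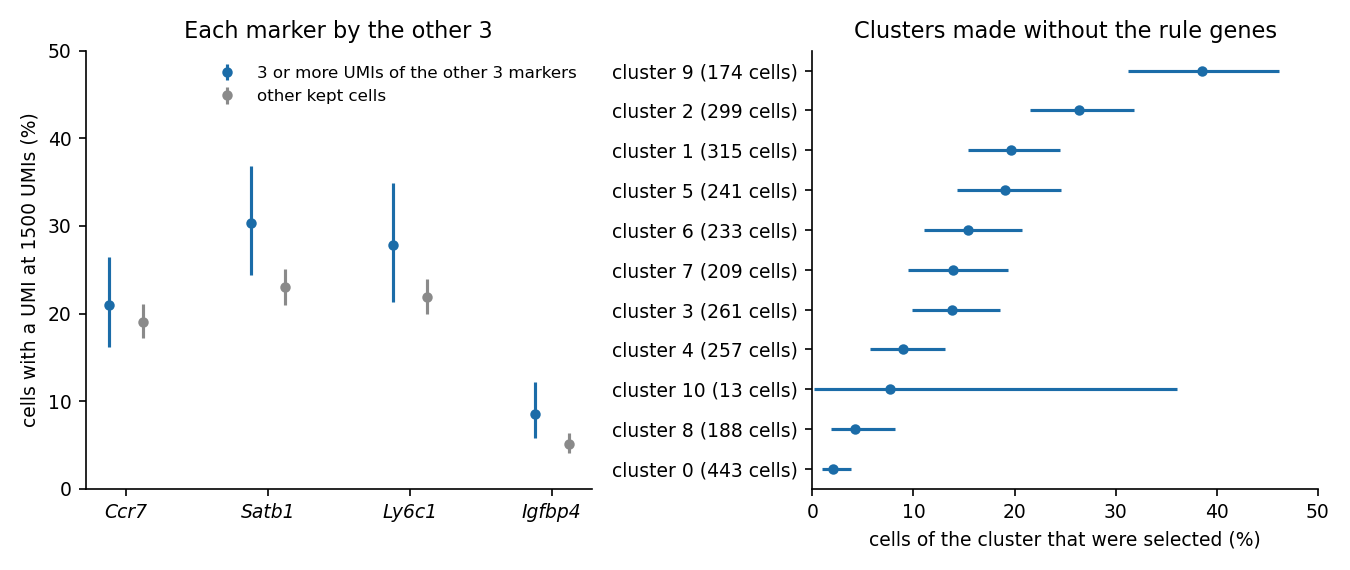
Left, share of cells with a UMI of each marker at 1500 UMIs (y axis, percent) among cells with 3 or more UMIs of the other 3 markers (blue) and the rest (grey). Right, share of each cluster that was selected (x axis, percent); bars are exact 95% binomial intervals. Ccr7 differs least between the sets (21.01 against 19.1%), and the intervals of the sets overlap for each marker. The selected share runs from 2.03 to 38.5% over clusters.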

How the data were processed

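The authors deposited, for each library, raw UMI counts of 28692 genes by cell barcode, with no normalization on record. Counts came from Cell Ranger 2.1.0 with mm10, per the submitters' processing notes; neither the annotation nor the cell calling is given in the sources used here. Deposited files of the PPARg-low library carry the tag pos, and the label's word is used. Cells with over 10% mitochondrial counts were left out (269 of 2902 PPARg-negative and 373 of 1992 PPARg-low barcodes). Kept cells held 5897260 and 2901710 UMIs. Scrublet (scanpy 1.11.5) marked 8 of 2633 cells (0.304%) and 0 selected ones, so doublets may have been missed, and marked cells were kept.

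UMIs were summed over the cells of a set and given as CPM. Ratios have exact conditional binomial intervals, which cover counting error only. Each group was 1 library, so there are no p-values, and cells did not serve as replicates. Genes entered with 30 or more UMIs over both sides, and those ranked by name had 100 or more. Named genes were the rule genes, 15 fixed genes, the 15 highest and 15 lowest by the interval bound nearest to 1, and up to 5 members of each of 22 lists. Other list members named beside a count (such as Cnn3, Elf4, Tgfbr1, Icos and Atp1b1) were chosen after their values were seen. The members and lists were chosen with earlier results of these data known. Clusters used 2000 variable genes without the rule genes, 20 components, 15 neighbours and leidenalg 0.10.2 at resolution 1. Gene positions came from GENCODE M21, which held 28339 of the identifiers. The ratio intervals were run on simulated independent Poisson counts, which is the model they assume. UMIs of a gene that gather in single cells were not simulated, so coverage for such genes was not tested. The work ran in Python 3.11.15 with scipy 1.17.1, numpy 2.4.6, matplotlib 3.10.9 and pandas 2.3.3. Some genes that the naming rule covers are not reported here.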

Additional observations from a re-analysis of the deposited data

How the results depend on the processing

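No paired analysis was possible because each group was 1 library. The share of selected cells, 15.04%, followed the rule: it was 25.7, 8.85 and 5.28% with at least 2, 4 or 5 marker UMIs, 17.7% with a mitochondrial maximum of 5%, 9.75 and 3.13% with the rule on 1500 and 750 thinned UMIs, 10.7, 9.27 and 7.33% without Ccr7, Satb1 or Ly6c1 in the sum, and 20.9% with no upper limits. It was 13.7% without Igfbp4 and 14.97% without Scrublet doublets and the deepest 2% of cells. The 48 higher genes became 100 and the 663 lower genes 276 with the rule on 1500 thinned UMIs, 74 and 428 without Ly6c1, 93 and 439 with a total free of ribosomal, mitochondrial and rule genes, 143 and 365 against the median ratio, 78 and 1199 with cells weighted equally, 20 and 376 at 2-fold, and 18 and 435 with 100 UMIs per gene. Where the count of higher genes stayed within 1.5 times, that of lower genes moved further, to 424 with the 5% mitochondrial maximum, 401 in cells of 1500 to 4000 UMIs, 1109 against cells with 0 marker UMIs, 332 in ribosome-rich cells and 333 there with the others within the limits, the last chosen after seeing the data. The cause of each move was not tested. Lower genes outnumbered higher ones under every alternative run. Of the 15 lowest genes 12 to 15 stayed called under 16 alternatives, and of the 15 highest 3 to 11. These alternatives did not include the comparisons with the cells next to the rule. Against cells with 2 marker UMIs 2 of the 15 lowest and 7 of the 15 highest stayed called. Against cells over a limit it was 1 and 6. Both of these sets were small, so genes with few UMIs could fall under the 30 UMIs that a call needed. The median of the effector list ran from -2.39 to -1.29, that of Treg identity from -0.96 to -0.36 and that of resting regulators from 0.05 to 0.21. Direction changed for 2 genes. Hist1h2ap was at 0.26, 0.36 and 0.14 with 4 or 5 marker UMIs or the thinned rule, 0.42 without doublets and the deepest cells, 0.39 in cells of 1500 to 4000 UMIs, 0.77 with cells weighted equally and 0.30 without the selected cell with the most cell cycle UMIs (chosen after seeing the data). Stmn1 was at 0.33, 0.42 and 0.77 under the first 3 of these, 0.94 without doublets and the deepest cells and 0.97 without that cell. Depth limits the rarer genes: a gene at 30 UMIs over both sides has a wide interval, and no spread between mice can be given.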
